A study of Glycine max and Glycine soja with 189 samples.

Results

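L66-432 is a near isogenic line of the soybean cultivar Clark that carries the recessive e2 allele. It was compared with Clark, which carries the dominant E2 allele, in every photoperiod and at every time point of an RNA sequencing experiment. Libraries were chosen by their labels: 54 of the 189 libraries belong to the 2 lines, 27 to L66-432 and 27 to Clark. Apart from E2, the methods list the same alleles for both lines, with recessive e1 and e5 and dominant E3, E4 and E7. L66-432 is a single line, so against Clark alone, e2 cannot be told apart from whatever else came from its donor parent. The other genotypes of the series, used only for comparison, are the Clark near isogenic lines L65-3366 (dominant E1), L74-441 (recessive e3) and L92-1195 (recessive e3 and dominant E5), the cultivar Williams 82 and the wild relative *G. soja*. The methods list the dominant E2 allele for these near isogenic lines and for Williams 82, and no alleles for *G. soja*.

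E2 is *GmGIa* (Glyma10g36600), a soybean homolog of the *Arabidopsis* clock gene *GIGANTEA*. In *Arabidopsis*, GIGANTEA is made in the light part of the day and links the circadian clock with *CONSTANS* (*CO*), which activates the florigen gene *FT*. Soybean is a short-day plant in which E2 is one of the maturity loci that set flowering time, and *GmFT2a* and *GmFT5a* are the florigen genes that promote flowering.

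Plants of both lines grew under SD (10 h light and 14 h dark), under LD (16 h light and 8 h dark) or under LD for 21 days and then SD for 5 days (LD-SD). They were sampled 26 days after planting at T1 (6:30 am, before lights on), T3 (2:30 pm, in the light) and T5 (10:30 pm, dark under SD and at the end of the light period under LD). These 9 combinations have 3 biological replicates for each line. The sample records give the first trifoliate leaf as tissue and the methods give whole shoots. The 3 are separate samples, but how many plants went into each is not stated. The values are RPKM of single transcripts, that is, reads scaled to the length of the transcript in kilobases and to the mapped reads of the library. Mapped reads, recovered from the steps of the low RPKM values, were 5.01 M to 18.2 M in the L66-432 libraries (median 9.29 M) and 4.92 M to 14.5 M in the Clark libraries (median 9.54 M). The share of recorded reads that mapped was 68.4% in L66-432 LD-SD T1 replicate C and at least 86.9% in the other 53 libraries.

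The libraries were first set against their labels. For each combination, 33 to 37 marker transcripts were taken whose difference between the lines had the same sign in all the other 8 combinations and a mean size of at least 1 on the log2 scale. In 51 libraries, 77.8% to 100% of the markers were nearer to the line on the label, and each of these libraries was also nearest to its own line among the 7 genotypes of the series. The library labelled Clark LD T1 replicate A had 36 of 37 markers on the L66-432 side and was nearest to L66-432. The library labelled L66-432 LD T1 replicate A had 4 of 37 markers on the L66-432 side and was nearest to Clark. The library labelled L66-432 LD-SD T5 replicate B had 80% of its markers on the L66-432 side, within the range of the 51 libraries. It was set apart because it was nearest to the near isogenic line L74-441. Of its markers, 24 of 26 on chromosome 6 were on the L66-432 side, but 2 of 4 on chromosome 10 and 0 of 3 on chromosome 14. These 3 libraries kept their labels, and the results are given with and without them. L66-432 SD T5 replicate B carried the markers of its label (28 of 33) but stood apart in another way: its correlation with the mean of the other libraries of its group was 0.828, against a median of 0.971 over the 54 libraries.

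**Figure D1:**
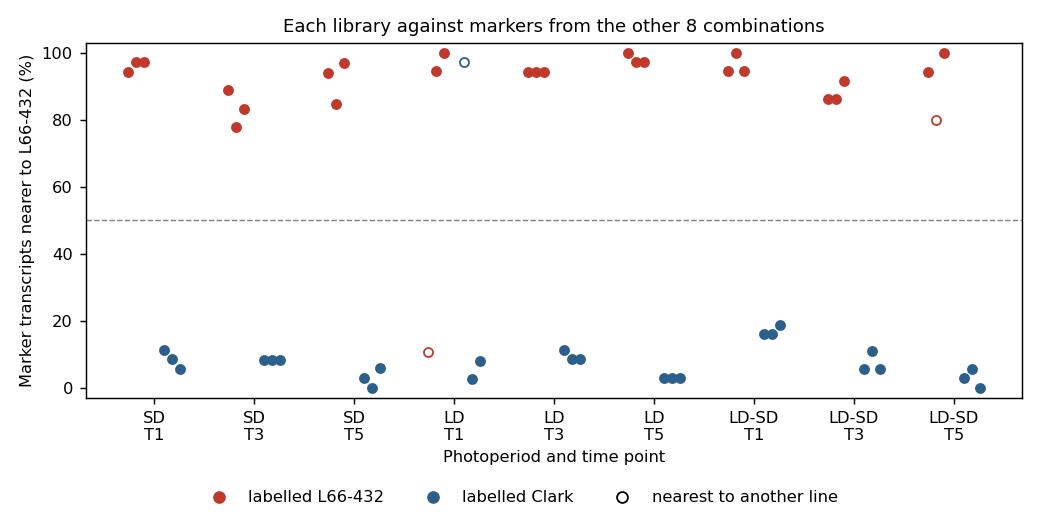
Share of marker transcripts (%) nearer to L66-432 than to Clark in each of the 54 libraries, by photoperiod and time point, with L66-432 libraries in red and Clark libraries in blue. Open circles are the 3 libraries nearest to another line than that on their label: in LD T1, the library labelled L66-432 lies among the Clark libraries and the library labelled Clark among the L66-432 libraries, and the open circle in LD-SD T5 is the library labelled L66-432 replicate B.

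*GmGIa* mRNA was less abundant in L66-432 than in Clark, most clearly at T3, when the gene was at its highest in both lines (mean over photoperiods 50.2 RPKM in L66-432 and 97.3 RPKM in Clark). Under SD at T3, *GmGIa* (Glyma10g36600.3, the only transcript of the locus past the filter on low values) had 48.2, 44.9 and 45.5 RPKM in L66-432, against 88.8, 99.6 and 88.6 RPKM in Clark. Under LD at T3, the values were 56.9, 48.7 and 54.7 RPKM in L66-432 and 80.4, 90.6 and 86.8 RPKM in Clark. In LD-SD at T3, they were 53.9, 50.5 and 48.8 RPKM in L66-432 and 124, 92.8 and 123 RPKM in Clark. The 9 L66-432 libraries of T3 thus lay between 44.9 and 56.9 RPKM, below the 9 Clark libraries at 80.4 to 124 RPKM, without overlap. In whole tissue, fewer cells with the mRNA and less mRNA per cell cannot be told apart. The 36 libraries of Williams 82, L65-3366, L74-441 and L92-1195 at T3 held 66.1 to 141 RPKM and the 9 *G. soja* libraries 84.7 to 125 RPKM. Every T3 library of another genotype therefore lay above all 9 of L66-432.

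At T5 *GmGIa* was low in both lines. Under SD it had 0.822, 1.05 and 1.17 RPKM in L66-432 and 2.25, 2.17 and 2.64 RPKM in Clark, again without overlap. Over the photoperiods together, it had 0.755 to 2.58 RPKM in L66-432 and 1.28 to 3.81 RPKM in Clark at T5. The highest L66-432 value at T5 came from LD-SD replicate B, 1 of the 3 libraries against their label. At T1, *GmGIa* depended on the photoperiod in both lines. Under LD it had 37.6, 41.1 and 31.3 RPKM in L66-432 and 26.6, 58.3 and 51.9 RPKM in Clark, and the libraries labelled replicate A, with 37.6 and 26.6 RPKM, are those whose markers go against their label. Under SD at T1, it had 0.709 to 1.0 RPKM in L66-432 and 0.657 to 1.29 RPKM in Clark. The only combination with a higher mean in L66-432 was LD-SD at T1, with 1.13, 1.94 and 2.0 RPKM in L66-432 and 1.13, 0.762 and 1.09 RPKM in Clark.

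Differences between the lines were tested with limma on log2(RPKM + 1) over 60826 transcripts, and a transcript is called where the p adjusted by Benjamini-Hochberg over all of them is below 0.05. Fold changes are on the log2(RPKM + 1) scale, L66-432 minus Clark, which understates the change of low transcripts. Averaged over the 9 combinations, *GmGIa* fell by 0.49 ± 0.08 in L66-432 (SE, limma, adjusted p = 5.05e-05), with the same sign in 8 of 9 combinations. Within photoperiods, it was called under SD (-0.58, adjusted p = 0.026), but not under LD (-0.48, adjusted p = 0.35) or in LD-SD (-0.40, adjusted p = 0.53). At T3 the differences were -1.12 in LD-SD (adjusted p = 0.024), -0.98 under SD (adjusted p = 0.081) and -0.68 under LD (adjusted p = 0.85). Without the 3 libraries against their label, *GmGIa* differed by -0.57 ± 0.06 (adjusted p = 1.67e-08), and it was called under SD (adjusted p = 6.97e-04), under LD (adjusted p = 0.0021) and in LD-SD (adjusted p = 0.0084). In that fit its difference also varied among time points (limma F-test, adjusted p = 0.042), which with all 54 libraries was not past the threshold (adjusted p = 0.27). The call over the 9 combinations was lost when replicate C of every group was left out (limma, adjusted p = 0.080). That fit kept the 3 libraries against their label.

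**Figure D2:**
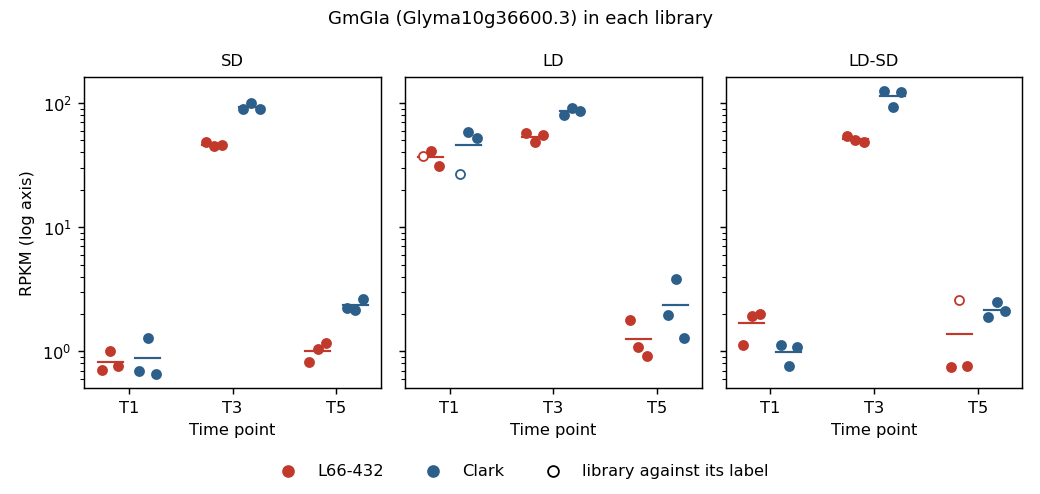
RPKM of *GmGIa* (log axis) in each library by time point under SD, LD and LD-SD, L66-432 in red and Clark in blue, with lines at the means of 3 libraries and open circles for libraries against their label. At T3 the L66-432 libraries sit at 44.9 to 56.9 RPKM and the Clark libraries at 80.4 to 124 RPKM in all photoperiods.

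Over the 9 combinations together, 288 of 60826 transcripts (0.473%) were called, 123 higher (0.202%) and 165 lower (0.271%) in L66-432. Of these, 185 (0.304%) had a difference of the same sign in all 9 combinations and are called consistent here: 76 were higher (0.125%) and 109 lower (0.179%). Their median size was 0.48 on the log2 scale, and 35 differed by at least 1. Without the 3 libraries against their label, 335 transcripts were called and 228 were consistent, 182 of them shared with the 185. No transcript kept the lines apart without overlap in all 9 combinations, and 45 (0.074%) did without those 3 libraries. The share of all transcripts that do so in a single combination was not counted. A lack of overlap between 3 and 3 libraries therefore only describes the values and tests nothing. The median difference over all transcripts was 0.01.

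Gene names could not be looked up for these locus IDs. Transcripts are therefore given by ID, except for 10 flowering loci paired with names by the study, and no sequence is shown. The largest consistent falls were both on chromosome 6. Glyma06g40740.1 fell by 3.72 ± 0.19 (SE, limma, adjusted p = 1.18e-17). Without the 3 libraries it had 0.425 to 2.39 RPKM in 25 L66-432 libraries (median 0.739) and 12.9 to 96.5 RPKM in 26 Clark libraries (median 27), with no overlap. In LD T1 replicate A, the library labelled L66-432 held 23.0 RPKM and the library labelled Clark 1.54 RPKM, each within the range of the other line.

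Glyma06g38795.1 fell by 3.34 ± 0.19 (SE, limma, adjusted p = 7.50e-17). It was listed at 0 in 22 of 27 L66-432 libraries and in 1 of 27 Clark libraries, the one labelled Clark LD T1 replicate A. With reads recovered from the RPKM steps, the L66-432 libraries held 28 reads, of which 24 came from the library labelled L66-432 LD T1 replicate A, and the Clark libraries 777. The median value of 3 reads for this short transcript is 1.31 RPKM, and without the 3 libraries no L66-432 library exceeded 0.766 RPKM, while the Clark median was 12.5 RPKM.

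The largest consistent rises were also on chromosome 6. Glyma06g41866.1 was higher by 2.64 ± 0.19 (SE, limma, adjusted p = 5.18e-13), with 10.2 to 20.6 RPKM in L66-432 (median 12.5) and 0.087 to 5.00 RPKM in Clark (median 0.526) without the 3 libraries. Glyma06g43880.1 was higher by 2.15 ± 0.13 (SE, limma, adjusted p = 1.68e-15), with 0.88 to 10.7 RPKM in L66-432 (median 6.31) and 0 to 1.06 RPKM in Clark (median 0.343) in the same libraries. The lowest L66-432 value of Glyma06g43880.1, 0.88 RPKM, came from SD T5 replicate B, the library that stood apart from its group, and was the only one in the range of Clark.

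The consistent transcripts were unevenly spread over the chromosomes. By the chromosome in the locus ID, 100 of the 185 (54.1%) lay on chromosome 6, 37 (20%) on chromosome 14 and 18 (9.73%) on chromosome 10. Together these are 155 of 9202 tested transcripts on the 3 chromosomes (1.68%), against 30 of 51624 elsewhere (0.0581%). No other chromosome held more than 6. Transcripts of 1 locus were counted separately. The 100 on chromosome 6, 37 on chromosome 14 and 18 on chromosome 10 came from 79, 30 and 16 loci. The counts without the 3 libraries were 182 on these chromosomes and 46 elsewhere.

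On chromosome 6, all 100 fell between Glyma06g21290 and Glyma06g45410, a stretch of 970 loci in ID order that also contains E1 (Glyma06g23026). Of the 876 tested transcripts there, 11.4% were consistent, 29 higher and 71 lower. On chromosome 14, 36 of 37 lay between Glyma14g10780 and Glyma14g34700 (654 tested, 5.50% consistent), 22 of them higher and 14 lower. The bounds of these stretches are the outermost consistent transcripts, so the shares within them describe the stretches chosen and test nothing.

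On chromosome 10, 16 of 18 lay between Glyma10g33510 and Glyma10g42030, a stretch of 798 loci that contains *GmGIa*. Here the share was lower: 16 of 962 tested transcripts (1.66%), 7 higher and 9 lower. The other 2 are the transcripts of 1 locus at the opposite end of the chromosome, Glyma10g02340. Within 100 loci on either side of *GmGIa*, 7 of 248 tested transcripts were called (2.82%, against 0.473% of all), and 3 of these were consistent (1.21%, against 0.304% of all). *GmGIa* itself was the only one of the 7 that was lower in L66-432, and the other 6 were higher. Those 6 are not separate loci, since Glyma10g36550.1, Glyma10g36550.2 and Glyma10g36550.3 are transcripts of 1 locus. Without replicate C of every group, which left 2 libraries a side, none of the 3 consistent transcripts stayed consistent. That fit kept all 3 libraries against their label.

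The strongest call next to *GmGIa* was Glyma10g36460.1, which lies 11 loci before it. It was higher by 1.09 ± 0.09 in L66-432 (SE, limma, adjusted p = 3.60e-12). Without the 3 libraries it had 9.79 to 23.5 RPKM in L66-432 (median 14.4) and 2.41 to 9.07 RPKM in Clark (median 6.05), so the lines did not overlap. The library labelled L66-432 LD-SD T5 replicate B had 4.79 RPKM, within the Clark range, while the other 2 of its group had 17.8 and 16.8 RPKM. The second, Glyma10g35871.1, lies 68 loci before *GmGIa* and is among the abundant transcripts, with means of 1056 RPKM in L66-432 and 649 RPKM in Clark. It was higher by 0.73 ± 0.17 (SE, limma, adjusted p = 0.023), but its values overlapped, with 170 to 2028 RPKM in L66-432 and 136 to 1410 RPKM in Clark without the 3 libraries. Its call was lost without replicates A, B or C of every group (adjusted p = 0.42, 0.13 and 0.47). The third consistent call in this window was Glyma10g36550.2, 5 loci before *GmGIa*, higher by 0.38 (limma, adjusted p = 0.011).

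Farther along the same stretch, Glyma10g41520.1, which was picked after its values were seen, fell by 1.06 ± 0.09 (SE, limma, adjusted p = 2.09e-11). It averaged 1.52 ± 0.61 RPKM in L66-432 (SD, n = 25) and 4.81 ± 2.06 RPKM in Clark (SD, n = 26) without the 3 libraries.

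**Figure D3:**
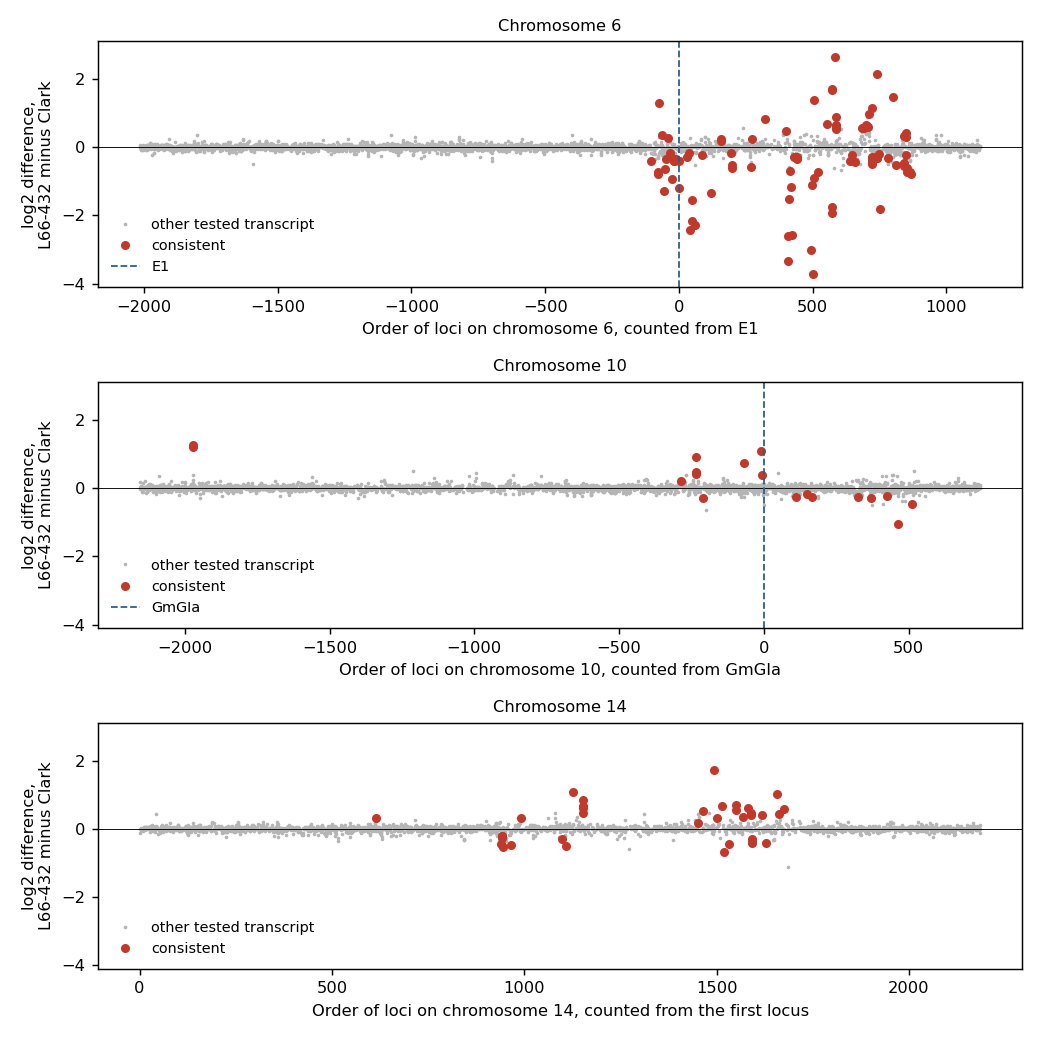
Mean log2 difference, L66-432 minus Clark, of every tested transcript on chromosomes 6, 10 and 14 against the order of its locus by ID, with consistent transcripts in red. The 100 consistent transcripts of chromosome 6 fill a stretch from just before E1 towards the end of the chromosome, and 16 of the 18 on chromosome 10 lie on either side of *GmGIa*.

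The other lines of the series were not used to choose these transcripts, and their levels were set beside those of L66-432 and Clark. For each consistent transcript, the mean of a line over its 27 libraries was placed between Clark (0) and L66-432 (1). On chromosome 6, L65-3366 and L74-441 were each nearer to L66-432 for 99 of 100 transcripts (median positions 1.01 and 0.916), while Williams 82 and L92-1195 were nearer to Clark for all 100 (medians 0.0202 and -0.0270). The mean of Glyma06g40740.1, for example, was 1.70 RPKM in L66-432, 1.84 RPKM in L65-3366, 4.47 RPKM in L74-441, 34.4 RPKM in Williams 82, 35.7 RPKM in L92-1195 and 31.7 RPKM in Clark.

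On chromosome 10, these 4 lines lay mostly nearer to Clark. Of the 16 transcripts in the stretch around *GmGIa*, Williams 82, L65-3366 and L74-441 were nearer to Clark for all 16, and L92-1195 for 12. Glyma10g36460.1 averaged 13.6 RPKM in L66-432, between 5.73 and 6.13 RPKM in those 4 lines and 5.86 RPKM in Clark. In *G. soja* it averaged 12.3 RPKM, and over the 16 transcripts *G. soja* was nearer to L66-432 for 6 and nearer to Clark for 10.

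Chromosome 14 gave a further arrangement. There, L65-3366, L74-441 and L92-1195 were nearer to L66-432 for 1, 1 and 0 of 37 transcripts, but Williams 82 was for 22 of 37. The largest rise on that chromosome, Glyma14g26830.1 (picked after its values were seen), averaged 3.31 RPKM in L66-432, 3.39 RPKM in Williams 82, 0.342 RPKM in L65-3366, 0.123 RPKM in L74-441, 0.112 RPKM in L92-1195 and 0.241 RPKM in Clark. Of the 32 remaining consistent transcripts, L65-3366 was nearer to L66-432 for 21 and L74-441 for 15.

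The same check that set the libraries of L66-432 and Clark against their labels found 6 libraries of L65-3366, L74-441 and Williams 82 nearest to another line than the one on their label. Without all 9 such libraries of the series, these counts moved by at most 1 in each line among the cultivated lines. In limma contrasts over all libraries, which share the L66-432 samples, 0.528% of all transcripts were called in L66-432 minus Clark, 4.33% in L66-432 minus Williams 82, 0.649% in L66-432 minus L92-1195, 0.201% in L66-432 minus L65-3366 and 0.403% in L66-432 minus L74-441. Of the 876 tested transcripts of the chromosome 6 stretch, 150 (17.1%), 195 (22.3%), 164 (18.7%), 3 (0.342%) and 1 (0.114%) were called in these contrasts, so that those with L65-3366 and L74-441 were near or below their share over all transcripts. Of the 962 in the stretch around *GmGIa*, the same contrasts called 34 (3.53%), 62 (6.44%), 32 (3.33%), 31 (3.22%) and 36 (3.74%), and the share for Williams 82 was the nearest to that over all transcripts. Reads of every line were aligned to transcripts of Williams 82, and the part that sequence differences between the lines have in these RPKM values was not tested.

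**Figure D4:**
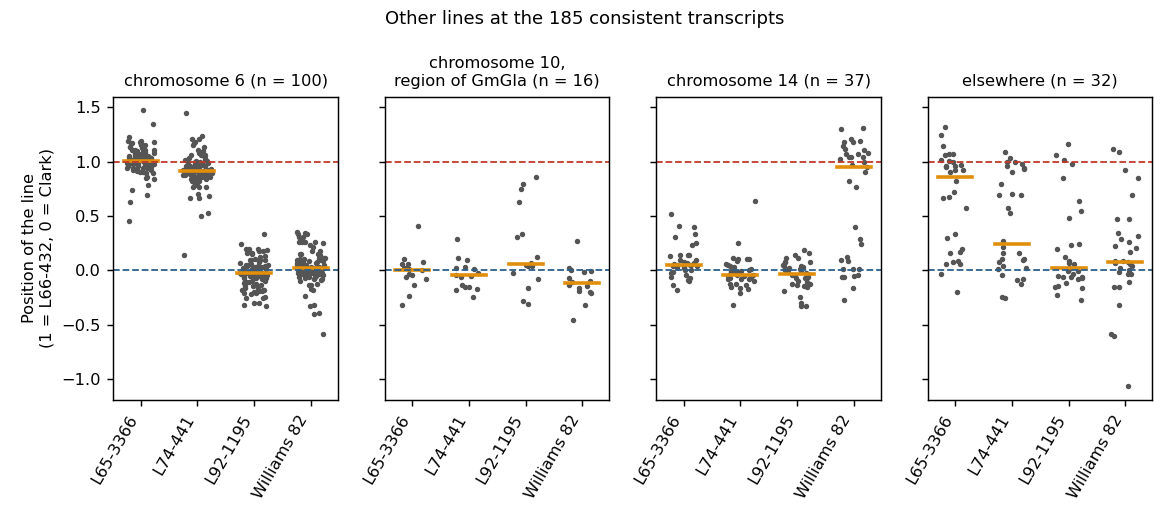
Position of 4 further lines between Clark (0, blue dashed line) and L66-432 (1, red dashed line) at each of the 185 consistent transcripts, with medians in orange. L65-3366 and L74-441 sit near 1 on chromosome 6, Williams 82 sits near 1 for 22 of 37 transcripts on chromosome 14, and all 4 lines sit nearer to Clark for most of the 16 transcripts around *GmGIa*.

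Within single photoperiods, 158 transcripts were called under SD (0.26%), 60 under LD (0.0986%) and 128 in LD-SD (0.21%). More transcripts were lower than higher in L66-432 in each: 102 (0.168%) against 56 (0.0921%) under SD, 38 (0.0625%) against 22 (0.0362%) under LD and 73 (0.12%) against 55 (0.0904%) in LD-SD. The 3 photoperiods use different plants, and the calls were shared to a large part. Of the transcripts called under LD, 54 (90.0%) were also called under SD, which is 34.2% of the SD calls. SD and LD-SD shared 84 calls (53.2% of the SD calls and 65.6% of those in LD-SD), and LD and LD-SD shared 52 (86.7% and 40.6%). Every shared call had the same direction in both photoperiods, and 50 transcripts (0.0822%) were called in all 3. Leaving out the 3 libraries raised the LD count to 114 and changed the others to 172 under SD and 137 in LD-SD.

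In the single combinations, called transcripts under SD numbered 33 (0.0543%) at T1, 50 (0.0822%) at T3 and 47 (0.0773%) at T5. Under LD there were 0, 26 (0.0427%) and 32 (0.0526%), and in LD-SD 71 (0.117%), 51 (0.0838%) and 26 (0.0427%). The count of 0 in limma is that of LD T1, where 1826 transcripts had an unadjusted p below 0.05 and where both libraries labelled replicate A carried the markers of the other line. Leaving out the 3 libraries against their label also changes the spread shared by all groups, and the counts at T1, T3 and T5 then were 55, 72 and 66 under SD, 28, 51 and 55 under LD, and 95, 83 and 51 in LD-SD.

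Few differences were limited to 1 photoperiod, that is, called there and not in the others, with the contrast to the mean of the others called as well. A difference limited in this way need not be absent elsewhere. Glyma14g11040.1 and Glyma19g28400.1, described below, are also among the consistent transcripts. Such transcripts numbered 6 under SD (0.00986%), 0 under LD and 1 in LD-SD (0.00164%), and all 7 were lower in L66-432. The 6 of SD had means below 1 RPKM in both lines over all photoperiods. All 6 were again limited to SD without the 3 libraries, and without SD T5 replicate B as well, 5 of them were. Without SD T5 replicate B alone, 11 transcripts passed. With a pseudocount of 0.1 in place of 1, no transcript passed.

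The largest effect limited to SD was that of Glyma06g41801.1 on chromosome 6, which differed by -1.38 ± 0.13 under SD (limma, adjusted p = 2.41e-09), by -0.18 under LD and by -0.31 in LD-SD. Under SD at T1 it had 0.0457, 0.0679 and 0 RPKM in L66-432, against 1.81, 3.76 and 1.98 RPKM in Clark. Under LD it was low in both lines, with at most 0.0632 RPKM in L66-432 and at most 0.468 RPKM in Clark. The exception was 0.666 RPKM in the library labelled L66-432 LD T1 replicate A. Without the libraries labelled LD T1 replicate A, all Clark values under LD (0.134 RPKM or more) lay above all those of L66-432. In LD-SD at T1 and T3, L66-432 had at most 0.0348 RPKM and Clark 0.144 to 0.502 RPKM. The median value of 3 reads is 0.135 RPKM, and log2(RPKM + 1) understates changes at such levels. The next was Glyma14g11040.1 on chromosome 14, at -0.95 ± 0.09 under SD (limma, adjusted p = 1.79e-09), with 0.0904, 0.278 and 0.087 RPKM in L66-432 and 2.39, 1.83 and 4.06 RPKM in Clark at T5.

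Glyma19g28400.1, the effect limited to LD-SD, differed by -1.08 ± 0.12 in LD-SD (limma, adjusted p = 6.33e-08) and by -0.21 and -0.09 under SD and LD. In LD-SD at T3 it had 0.726, 0.918 and 0 RPKM in L66-432 and 2.42, 2.35 and 3.14 RPKM in Clark. At T1 under SD both lines were higher, with 9.80, 9.07 and 7.44 RPKM in L66-432 and 12.0, 10.6 and 10.5 RPKM in Clark, and under LD both lay between 0 and 0.187 RPKM. It was no longer limited to LD-SD when SD T5 replicate B was left out with the 3 libraries.

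In limma F-tests of the interaction, the difference between the lines varied among photoperiods for 6 transcripts (0.00986%) and among time points for 3 (0.00493%). The smallest adjusted p among photoperiods, 0.00152, was that of Glyma19g29880.1, which had 0.328, 0.0504 and 0.315 RPKM in L66-432 and 3.33, 2.16 and 2.70 RPKM in Clark under SD at T5, and at most 0.14 RPKM in L66-432 and 0.311 RPKM in Clark under LD and in LD-SD. Next came Glyma06g41801.1, described above (adjusted p = 0.00257).

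Among time points, Glyma14g34901.1 had the smallest adjusted p, 4.89e-06. At T1 under SD it had 0.315, 0.421 and 0.303 RPKM in L66-432 and 9.63, 6.95 and 9.81 RPKM in Clark. At T3 under SD the order was turned round, with 9.41, 9.01 and 9.70 RPKM in L66-432 and 1.79, 3.43 and 2.12 RPKM in Clark. The lines did not overlap at either time under SD. The order was not turned round at T3 in the other photoperiods. Under LD, L66-432 had 0.285, 0.450 and 0.174 RPKM and Clark 1.13, 1.02 and 0.674 RPKM, without overlap. In LD-SD they had 1.49, 0.504 and 0.103 RPKM and 1.77, 1.12 and 1.72 RPKM, with overlap. Glyma06g40780.1 on chromosome 6 followed with an adjusted p of 8.83e-04. Its lines differed most at T3 under SD, with 8.82, 5.01 and 6.42 RPKM in L66-432 and 44.8, 38.3 and 34.5 RPKM in Clark. Without the 3 libraries against their label, the adjusted p was 1.63e-12 for Glyma14g34901.1, 3.57e-04 for Glyma06g40780.1 and, among photoperiods, 0.0098 for Glyma19g29880.1 and 0.011 for Glyma06g41801.1.

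The florigen genes *GmFT2a* (Glyma16g26660.1) and *GmFT5a* (Glyma16g04830.1) were less abundant in L66-432, with their largest differences in LD-SD. Over the 9 combinations, *GmFT5a* fell by 0.68 ± 0.13 (SE, limma, adjusted p = 0.0026) and *GmFT2a* fell by 0.52 ± 0.12 (SE, limma, adjusted p = 0.034), both with the same sign in all 9. Both were also called without the 3 libraries against their label (adjusted p = 2.13e-04 for *GmFT5a* and 0.048 for *GmFT2a*). In LD-SD, *GmFT5a* differed by -1.46 ± 0.23 (limma, adjusted p = 2.24e-04) and *GmFT2a* by -1.27 ± 0.21 (limma, adjusted p = 7.05e-04). Neither was called under SD (-0.13 and -0.19) or under LD (-0.46 and -0.09).

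In LD-SD at T3, *GmFT2a* had 3.18, 1.72 and 0.652 RPKM in L66-432 and 16.1, 4.54 and 15.6 RPKM in Clark. At T1 in LD-SD, it had 1.55, 2.08 and 1.27 RPKM in L66-432 and 5.38, 3.96 and 2.81 RPKM in Clark. The lines did not overlap at either time, and at T5 they did. *GmFT5a* had 5.28, 5.57 and 2.02 RPKM in L66-432 and 19.3, 13.5 and 19.9 RPKM in Clark at T3 in LD-SD. At T1, it had 5.56, 8.79 and 1.23 RPKM in L66-432 and 24.4, 13.8 and 10.8 RPKM in Clark. Again the lines did not overlap at T1 and T3. The lowest *GmFT5a* value of L66-432 at T1 came from replicate C, the library with the lowest share of mapped reads.

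Under SD, where both florigen genes were highest, the lines overlapped at every time point. *GmFT5a* had 65.4, 48.6 and 56.1 RPKM in L66-432 and 71.6, 41.9 and 72.8 RPKM in Clark at T1, and *GmFT2a* had 22.2, 36.0 and 32.7 RPKM in L66-432 and 19.2, 50.3 and 39.9 RPKM in Clark at T3. Under LD, *GmFT2a* did not exceed 0.39 RPKM in L66-432 and 0.78 RPKM in Clark, near the level of 3 reads (median 0.337 RPKM), so a difference in *GmFT2a* was not detectable at this depth. Without the libraries labelled LD T1 replicate A, *GmFT5a* under LD had 0 to 0.343 RPKM in L66-432 and 0.386 to 1.84 RPKM in Clark. The L66-432 values lie near or below its level of 3 reads (median 0.281 RPKM), and the Clark values lie above that median. Without the 3 libraries against their label, it differed by -0.72 under LD and was not called (limma, adjusted p = 0.61). The difference in LD-SD was not past the threshold against the mean of the other photoperiods (limma, adjusted p = 0.80 for both genes), so the florigen genes are not among the effects limited to 1 photoperiod. The call of *GmFT2a* over the 9 combinations was lost under 7 of the alternatives, among them a pseudocount of 0.1 (adjusted p = 0.14) and the loss of SD T5 replicate B alone (adjusted p = 0.053). That of *GmFT5a* was lost without replicate B or C of every group (adjusted p = 0.12 and 0.11).

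Set beside the other lines, *GmFT5a* in LD-SD averaged 4.62 RPKM in L66-432, 9.41 RPKM in L65-3366, 11 RPKM in L74-441, 12.1 RPKM in Williams 82, 20.3 RPKM in L92-1195, 7.37 RPKM in *G. soja* and 14.0 RPKM in Clark. *GmFT2a* in LD-SD averaged 1.96 RPKM in L66-432, 3.60 RPKM in L65-3366, 4.51 RPKM in L74-441, 4.13 RPKM in Williams 82, 10.0 RPKM in L92-1195, 2.28 RPKM in *G. soja* and 6.89 RPKM in Clark. The L66-432 means were the lowest of the 7 genotypes, with *G. soja* next. These means include libraries nearest to another line than that on their label. For L74-441 they are T3 replicate B and T5 replicates B and C, nearest to L92-1195. For L65-3366 it is T5 replicate B, nearest to L66-432, and for L66-432 T5 replicate B, nearest to L74-441. Means without them were not taken. The L92-1195 means include an LD-SD T5 column with replicate letter B, which is not among the sample titles of that group (A, C and D). For *GmFT5a*, L66-432 minus L65-3366, which carries the dominant E1 allele, and L66-432 minus *G. soja* were not called over the 9 combinations (-0.23 and -0.08, limma, adjusted p = 1 and 0.61), while L66-432 minus L92-1195 was (-0.72, limma, adjusted p = 2.69e-05).

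**Figure D5:**
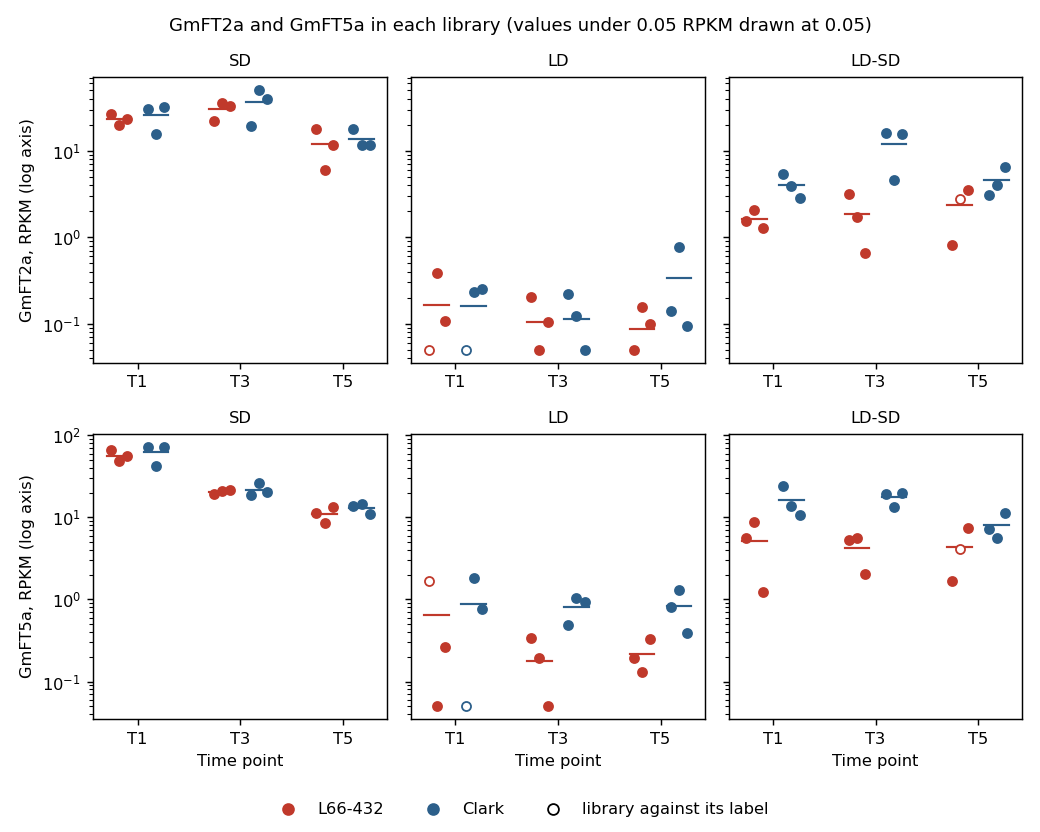
RPKM of *GmFT2a* and *GmFT5a* (log axes) in each library by time point, L66-432 in red and Clark in blue, with lines at the means of 3 libraries and open circles for libraries against their label. The lines overlap under SD, and in LD-SD every L66-432 library lies below every Clark library at T1 and T3.

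Of the 10 flowering loci followed here, *E1*, 2 phytochrome A genes and 4 *CO* homologs showed no difference past the threshold over the 9 combinations (limma, adjusted p = 1 for each), and further *CO* homologs were not analysed here. *E1*, a legume-specific repressor of flowering that lies in the chromosome 6 stretch, differed by -0.08 ± 0.05. It was detected mostly under LD, with 0 to 2.01 RPKM in L66-432 and 0 to 2.48 RPKM in Clark, and its L66-432 libraries held 64 reads in all, against 94 in Clark. The phytochrome A genes *GmPHYA3* (E3) and *GmPHYA2* (E4), which encode light receptors, differed by -0.02 ± 0.07 and -0.06 ± 0.05. The *CO* homologs *GmCOL1a* and *GmCOL1b* differed by 0.08 ± 0.08 and 0.09 ± 0.08, and *GmCOL2a* and *GmCOL2b* by -0.09 ± 0.05 and -0.04 ± 0.07. At T1 under SD, *GmCOL1b* had 540, 618 and 623 RPKM in L66-432 and 622, 861 and 672 RPKM in Clark. In a single combination, 1 of these genes was called: *GmCOL2a* under LD at T3, with 0.425, 0.385 and 0.952 RPKM in L66-432 and 1.87, 1.53 and 2.29 RPKM in Clark (limma, log2 difference -0.88, adjusted p = 0.0074). *GmCOL2b* in that combination had 1.64, 1.24 and 0.954 RPKM in L66-432 and 2.55, 2.25 and 1.85 RPKM in Clark. *GmCOL2b* was not called there (limma, log2 difference -0.50), and that its 3 and 3 values do not overlap is no test.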

How the data were processed

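RNA of 7 soybean genotypes was sequenced, and the 27 libraries of L66-432 and the 27 of Clark are compared here. To make the files, the authors mapped reads to the Williams 82 transcript set using Bowtie, tallied them with an in-house script and scaled the tallies to RPKM. The deposited tables hold 1 RPKM column per library for 73320 transcripts of 54175 loci. Which Bowtie version was used, whether strand was considered and how reads with several matches were treated are not given in the sources used here, so transcripts of 1 locus, overlapping genes and near-identical copies are uncertain. The number of mapped reads was recovered as the depth that turns low RPKM values into whole reads, and a floor of 3 reads covers counting error only. A single transcript with an infinite value was left out.

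Groups follow the labels. The model was fitted in limma 3.58.1 (R 4.3.3) to log2(RPKM + 1), a scale set here and not by the authors, with 1 coefficient for each of the 18 groups and a trended prior. It covered the 60826 transcripts that averaged 0.1 RPKM or more in the 54 libraries. Contrasts were the mean of the 9 differences, each photoperiod, each combination, each photoperiod minus the others, and F-tests among photoperiods and time points, each adjusted over all transcripts by Benjamini-Hochberg. Positions rest on the chromosome and order of the locus IDs, without coordinates. The limma step was tested on simulated data. Named are 10 flowering loci given by the study (E1 to E4, *GmFT2a*, *GmFT5a* and 4 *CO* homologs), the 2 largest rises and falls among consistent transcripts, among those within 100 loci of *GmGIa* and among effects limited to a photoperiod, and the 2 smallest adjusted p of each interaction. Others were picked after their values were seen. The comparison, its lists and these rules were chosen with earlier results of these data known. The labelled tissue was not checked against marker genes, because the locus IDs had no names. Figures were drawn with matplotlib 3.10.9.

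Alternatives were another pseudocount (0.1), other filters (none, or 1 RPKM), rescaling by median of ratios, leaving out replicates, a replicate block, all libraries of the series in the fit, eBayes without trend, library weights, sums per locus and windows of 50 and 200 loci. Fits without the 3 libraries against their label (with and without the block, and without SD T5 replicate B as well) and without LD-SD T1 replicate C were chosen after seeing the data.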

Additional observations from a re-analysis of the deposited data

Results flagged for a closer look

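For 9 transcripts, the difference between L66-432 and Clark itself varied among photoperiods or among time points by the limma F-test. Among photoperiods, the adjusted p was 0.00152 for Glyma19g29880.1, 0.00257 for Glyma06g41801.1, 0.00385 for Glyma14g11040.1, 0.00693 for Glyma19g28400.1, 0.0123 for Glyma08g27670.1 and 0.022 for Glyma01g08130.1. The last 2 differed by -0.54 and -0.45 under SD and by less than 0.05 in size under LD and in LD-SD, at means of 0.277 and 0.148 RPKM in L66-432 and 0.533 and 0.297 RPKM in Clark. Among time points, the adjusted p was 4.89e-06 for Glyma14g34901.1, 8.83e-04 for Glyma06g40780.1 and 0.0247 for Glyma06g35010.3, which differed by -0.45 at T1, 0.34 at T3 and -0.12 at T5. Groups of 3 libraries were not searched for single outlying values.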

How the results depend on the processing

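Counts of called transcripts are given first as reported. Across the fits that left out replicate A, B or C of every group, SD T5 replicate B or LD-SD T5 replicate B of L66-432, or both of these, the count over the 9 combinations (288) ran between 119 and 333, the consistent transcripts (185) between 57 and 197, SD (158) between 54 and 201, LD (60) between 5 and 75, LD-SD (128) between 49 and 133, effects limited to 1 photoperiod (7) between 0 and 11, the interaction with photoperiod (6) between 0 and 8, that with time point (3) between 0 and 4, the sum over the 9 combinations (336) between 39 and 419, and the consistent transcripts within 100 loci of *GmGIa* (3) between 0 and 3. Fits without replicate C gave the lowest of each. With library weights the counts were 460 over the 9 combinations, 254 under SD, 169 under LD, 239 in LD-SD, 27 limited, 18 and 10 for the interactions with photoperiod and time point and 1389 summed over combinations. Without the 3 libraries against their label, they were 114 under LD, 5 for the interaction with time point, 556 summed and 5 near *GmGIa*. Without SD T5 replicate B as well, they were 125 under LD, 647 summed and 5 near *GmGIa*. A minimum mean of 1 RPKM gave 99 under SD, 1 limited and 1 for the interaction with photoperiod, no filter gave 14 limited and 12 for that interaction, a pseudocount of 0.1 gave 0 and 0, and a fit of all libraries 3 and 1. A window of 200 loci held 6. The cause was not tested, except that fewer samples or transcripts entered the fits that left some out.

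The labels do not say that replicate letters mark a shared batch or day. The letters were not taken to pair the samples, because not every pair of deviations from the group means correlated above 0.1. Of 27 same-lettered pairs, 17 did (lowest -0.16, median 0.19, highest 0.56), all 3 of them in some combinations. These values do not show that same-lettered samples are independent, so counts with a replicate block are given as well. With a replicate block, 303 transcripts were called over the 9 combinations, 184 were consistent, 159 were called under SD, 38 under LD and 126 in LD-SD, and 11 were limited. At T1, T3 and T5, the blocked counts were 17, 38 and 37 under SD, 0, 15 and 10 under LD, and 108, 29 and 5 in LD-SD. With the block and without the 3 libraries, the counts were 121 under LD, 5 for the interaction with time point, 621 summed and 5 near *GmGIa*.

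Of 544 values for the mean difference of 29 transcripts under the alternatives, 524 kept their direction and side of the threshold and 19 kept the direction but lost the call. *GmCOL2b* (Glyma19g05170.1), not called, differed by -0.04, by 0.042 without replicate C and by -0.085 without replicate A. Depth limits transcripts near the level of 3 reads, and the 3 libraries against their label limit the counts of single combinations.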
